A study of Homo sapiens with 45 samples.

Results

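TMCO1 (transmembrane and coiled-coil domains 1) was followed through all 15 groups of an RNA sequencing study of 3 human breast cancer cell lines. It is 1 of 57353 gene symbols in the deposited table, of which 40379 had a count in any library. It was chosen by its level, which stood higher after each of the 3 targeting small interfering RNAs (siRNAs, short duplexes that direct the degradation of a matching transcript) than after the non-targeting siRNA in earlier results of these same data. Its differences between targeting and non-targeting groups are therefore a description and carry no test here.

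The lines MM134 and MM330, short for MDA-MB-134-VI and MDA-MB-330, come from lobular breast carcinoma, and HCC1428 from ductal carcinoma. The cells of every group were deprived of hormone for 3 days, transfected with an siRNA, given estradiol or its vehicle 24 h later and lysed after another 24 h. The siNT group had the non-targeting siRNA and 0.01% ethanol, the vehicle. The siNT_E2 group carried the non-targeting siRNA with estradiol (E2) at 100 pM, the hormone that activates the estrogen receptor. The siER_E2, siFOXA1_E2 and siMDC1_E2 groups had 100 pM E2 and an siRNA against the estrogen receptor gene ESR1, against FOXA1, which opens chromatin for the receptor, or against MDC1, a scaffold of the DNA damage response. Among the groups used here none had a targeting siRNA with vehicle and none was left untransfected, and the same non-targeting siRNA label served both control groups, so an effect of the targeting siRNAs and an effect of the non-targeting siRNA on TMCO1 cannot be told apart in this design. Each group had 3 libraries, and each line is a single cell line. The labels did not say whether libraries came from separate cultures, so p-values measure only the spread between these libraries.

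TMCO1 is a membrane protein of the endoplasmic reticulum. It has been described as a channel that lets calcium out of an overfilled reticulum, and as a member of the Oxa1 family of membrane protein insertases that works behind the SEC61 channel when proteins with many membrane spans are made. In that multipass translocon it pairs with RAB5IF, next to the CCDC47 and WDR83OS pair and to a complex of NCLN, TMEM147 and NOMO proteins. Loss of TMCO1 in people causes a recessive syndrome of skull, face and skeletal anomalies with intellectual disability.

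The gene (ENSG00000143183.16, protein coding) lies on chromosome 1 of GRCh38, on the minus strand, from 165724293 to 165827755 in GENCODE 29, with 9 transcripts. RefSeq gives a shorter gene, from 165724291 to 165768922, and places the antisense gene TMCO1-AS1 at 165768929 to 165775449 on the plus strand, so that the starts of both genes lie 7 bases apart, head to head. At its far end the longest GENCODE model of TMCO1 overlaps the start of UCK2, a plus-strand gene at 165827531 to 165911618. The strand setting of the counting was not given in the sources used here. If it ignored strand, reads of overlapping genes could not be told apart. Of the 5657 distinct 31-base stretches in TMCO1 transcripts, no other gene held more than 20 on the same strand, which was AACS, and on the opposite strand UCK2 held 195 and AL451074.2 held 222.

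The 250 bases before the RefSeq start, at chr1:165768923-165769172 on the minus strand of GRCh38.p14, are shown because the antisense gene starts inside them, 7 bases before TMCO1. The capitals mark the 2 longest palindromes (stretches equal to their own reverse complement), and the last base adjoins the start of TMCO1.

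TMCO1 upstream, 5′ to 3′: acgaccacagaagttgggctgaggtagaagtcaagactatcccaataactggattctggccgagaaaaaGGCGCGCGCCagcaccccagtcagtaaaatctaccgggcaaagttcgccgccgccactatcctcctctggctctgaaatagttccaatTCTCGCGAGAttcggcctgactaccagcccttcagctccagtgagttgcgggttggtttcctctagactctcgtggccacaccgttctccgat

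Its GC content is 54.8%, against a median of 58% over 35116 RefSeq promoter windows of the same length. The full estrogen response element, GGTCANNNTGACC, was not in it on either strand, and was in 0.0399% of all windows. Its core alone, GGTCA, which is contained in the full element, was not in it either and was in 32.6% of windows. The forkhead motif TGTTTAC was likewise not in it and was in 2.98% of windows. The 2 palindromes of 10 bases are GGCGCGCGCC, at bases 70 to 79 and in 0.552% of windows, and TCTCGCGAGA, at bases 158 to 167 and in 0.373%. A palindrome at least as long was found in 30.1% of windows. These are matches of letters and say nothing of which factors bind.

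Levels are in counts per 1000000 (CPM), with totals scaled by TMM. Library totals ran from 21.0 to 36.7 M counts, in units of 1000000. The 3 targeted genes retained 7.82% to 49.8% of their siNT_E2 level after their own siRNA, and all 9 knockdown groups lay below every siNT_E2 library of their line. The levels of the other targets differed as well. ESR1 was also below every siNT_E2 library after siFOXA1_E2 and siMDC1_E2: at 113 to 120 and 128 to 129 against 568 to 582 CPM in MM134, 196 to 205 and 141 to 143 against 267 to 285 in MM330, and 370.04 to 371 and 368 to 394 against 405 to 419 in HCC1428. In siNT, ESR1 stood at 324 to 366 CPM in MM134, also below siNT_E2, at 284 to 293 in MM330 and at 544 to 562 in HCC1428. The targeting groups thus share an ESR1 level below both controls, and its part in the level of TMCO1 was not tested. MDC1 was likewise below every siNT_E2 library after siER_E2 and siFOXA1_E2 in each line, but in HCC1428 siNT, at 60.6 to 67.1 CPM, was lower than both. Processed pseudogenes, copies of genes that came from spliced RNA, took 0.337% to 0.494% of counts in 11 libraries and 0.123% to 0.158% in the other 34; the 11 held 6 targeting and 5 non-targeting libraries. All 5 luminal epithelial markers exceeded 1 CPM in every library. Of 6 fibroblast markers only the collagen gene COL1A1 did, at 19.6 to 133 CPM, and of 6 immune and 5 endothelial markers none did, with the endothelial VWF reaching 10.3 CPM in some.

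In MM134, TMCO1 stood at 24.2, 23.8 and 23.2 CPM in the 3 siNT libraries. The siNT_E2 libraries held 18.9, 20.5 and 18.7 CPM. After siRNA against ESR1 the values were 82.2, 83.8 and 82.7 CPM. With siRNA against FOXA1 they were 76.2, 81.4 and 77.6 CPM, and with siRNA against MDC1 88.2, 83.6 and 85.8 CPM. The 9 targeting libraries thus formed a narrow band well above the 6 non-targeting ones, and no value fell between. The lowest targeting library was 3.15-fold above the highest non-targeting library. Group means were 23.7 ± 0.50 CPM for siNT and 19.4 ± 0.98 for siNT_E2, then 82.9 ± 0.86 for siER_E2, 78.4 ± 2.7 for siFOXA1_E2 and 85.9 ± 2.3 for siMDC1_E2 (SD, n = 3).

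MM330 had the least TMCO1. Its siNT libraries held 9.52, 8.11 and 9.17 CPM, and its siNT_E2 libraries 9.53, 9.71 and 6.70 CPM. The siER_E2 libraries held 33.5, 40.8 and 33.9 CPM. The siFOXA1_E2 libraries held 30.5, 34.3 and 36.5 CPM, and those of siMDC1_E2 33.0, 29.7 and 30.1 CPM. The siFOXA1_E2 libraries overlapped both other targeting groups, siER_E2 lay above siMDC1_E2, the non-targeting groups overlapped, and the lowest targeting library was 3.06-fold above the highest non-targeting one. The level of 6.70 CPM in siNT_E2 replicate 3, from 196 counts, was the lowest of all 45 libraries. Means were 8.93 ± 0.73 CPM for siNT and 8.64 ± 1.7 for siNT_E2, then 36.1 ± 4.1 for siER_E2, 33.8 ± 3.0 for siFOXA1_E2 and 30.9 ± 1.8 for siMDC1_E2 (SD, n = 3).

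HCC1428 had the most. TMCO1 stood at 63.1, 62.3 and 58.7 CPM in siNT and at 50.9, 50.9 and 51.6 CPM in siNT_E2. The siER_E2 libraries held 142, 135 and 128 CPM. The siFOXA1_E2 libraries held 113, 109 and 109 CPM, and the siMDC1_E2 libraries 117, 123 and 121 CPM. Here the groups kept apart: siER_E2 lay above siMDC1_E2, siMDC1_E2 above siFOXA1_E2, siNT below those and siNT_E2 lowest, with no overlap between neighbours. The gap between the lowest targeting and the highest non-targeting library was 1.72-fold, smaller than in the lobular lines. Means were 61.4 ± 2.3 CPM for siNT and 51.1 ± 0.41 for siNT_E2, then 135 ± 6.9 for siER_E2, 110 ± 2.5 for siFOXA1_E2 and 120 ± 3.1 for siMDC1_E2 (SD, n = 3).

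**Figure D1:**
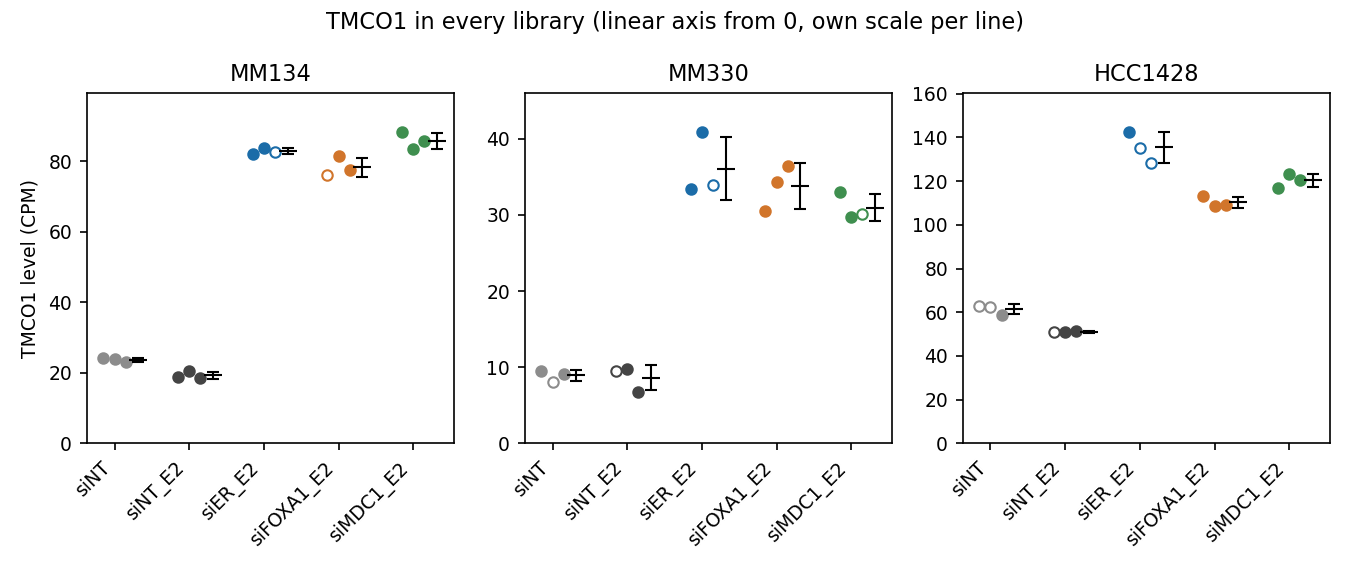
TMCO1 level in CPM (linear axis from 0 with its own scale in each line) for every library of the 5 groups; open circles are libraries with the higher share of counts at processed pseudogenes, and the black bar is the group mean with its SD (n = 3). In each line the 9 targeting libraries lie above the 6 non-targeting ones, with lowest values of 76.2 (MM134), 29.7 (MM330) and 109 CPM (HCC1428), against at most 24.2, 9.71 and 63.1 CPM.

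Against siNT_E2, which received the same E2, TMCO1 was higher in MM134 by 2.10 ± 0.04 (SE) on the log2 scale with siER_E2, by 2.02 ± 0.04 with siFOXA1_E2 and by 2.15 ± 0.04 with siMDC1_E2. These are 4.28-fold, 4.05-fold and 4.44-fold. In MM330 the log2 differences were 2.06 ± 0.12, 1.97 ± 0.12 and 1.84 ± 0.12, or 4.17-fold, 3.91-fold and 3.57-fold. In HCC1428 they were 1.40 ± 0.04, 1.11 ± 0.04 and 1.23 ± 0.04, or 2.65-fold, 2.16-fold and 2.35-fold. The 3 comparisons of a line share their siNT_E2 libraries. Genes at 2-fold or more above siNT_E2 made up 8.25%, 8.13% and 4.74% of those tested in MM134 (siER_E2, siFOXA1_E2 and siMDC1_E2), 3.36%, 8.34% and 1.24% in MM330, and 5.28%, 5.68% and 1.48% in HCC1428. Ordered by log2 difference from the highest, TMCO1 was gene 171, 290 and 107 of 17744 in MM134, gene 56, 378 and 27 of 17834 in MM330, and gene 386, 843 and 135 of 18286 in HCC1428.

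Against siNT, which lacked E2, both the siRNA target and the hormone differ. The log2 differences were 1.80 ± 0.04, 1.72 ± 0.04 and 1.86 ± 0.04 in MM134 for siER_E2, siFOXA1_E2 and siMDC1_E2. They were 2.02 ± 0.12, 1.93 ± 0.12 and 1.80 ± 0.12 in MM330. In HCC1428 they were 1.14 ± 0.04, 0.85 ± 0.04 and 0.97 ± 0.04, so the siFOXA1_E2 and siMDC1_E2 levels, at 1.80-fold and 1.96-fold, did not reach 2-fold there. Genes at 2-fold or more above siNT made up 2.58%, 6.55% and 2.5% in MM134, 1.91%, 8.46% and 4% in MM330 and 1.89%, 6.06% and 6.22% in HCC1428. In MM330 the reference made little difference, whereas in MM134 and HCC1428 the distance to siNT was shorter than that to siNT_E2.

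The distance to siNT_E2 was longer in both lobular lines than in HCC1428, as a description. In a fit of all 45 libraries, the difference from siNT_E2 was larger in MM134 than in HCC1428 by 0.64 ± 0.11 with siER_E2, 0.87 ± 0.11 with siFOXA1_E2 and 0.92 ± 0.11 with siMDC1_E2 on the log2 scale (SE). MM330 exceeded HCC1428 by 0.63 ± 0.12, 0.83 ± 0.12 and 0.60 ± 0.12. MM134 and MM330 differed by 0.01 ± 0.12, 0.03 ± 0.12 and 0.32 ± 0.12. These values come from contrasts the choice of the gene used and were not tested. The line with the highest starting level had the smallest fold.

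**Figure D2:**
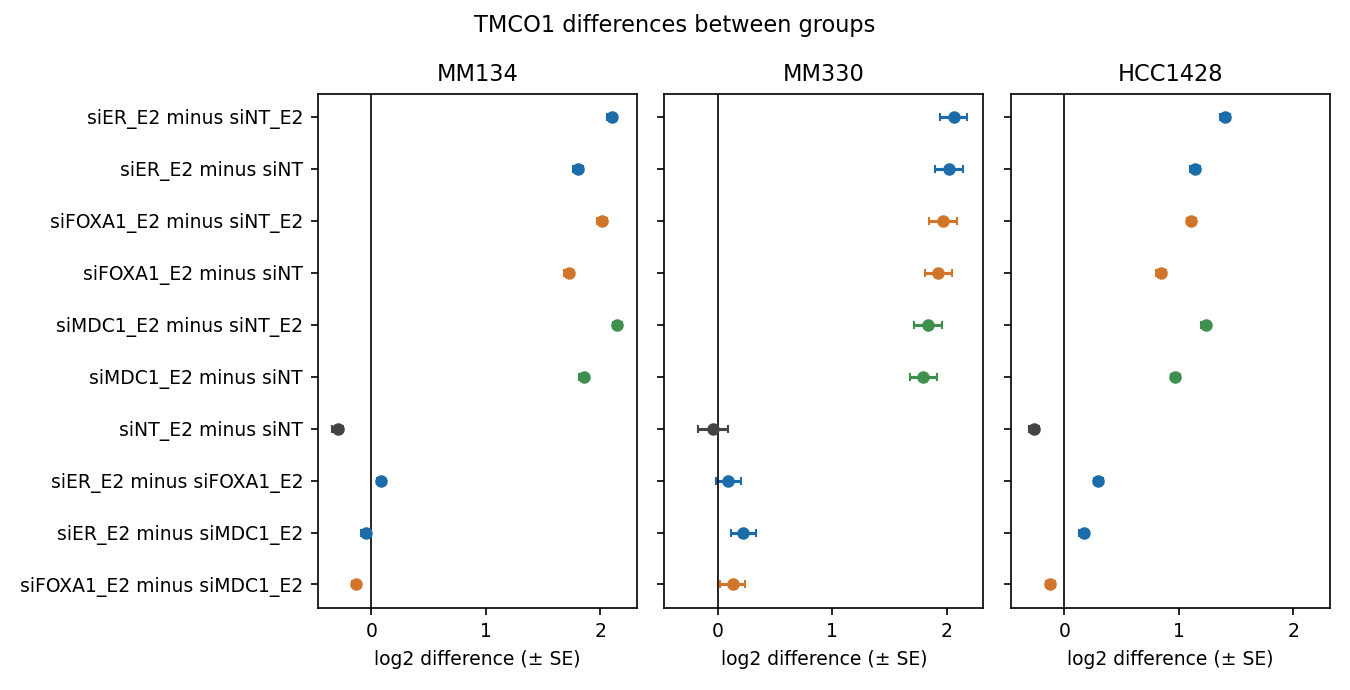
Log2 differences of TMCO1 between the groups of each line, as points with their standard error (bars), for 6 comparisons of a targeting with a non-targeting group, E2 against vehicle, and 3 comparisons between targeting groups. The targeting against non-targeting differences lie between 0.85 and 2.15, and those between targeting groups between -0.13 and 0.30.

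E2 itself was compared with vehicle under the non-targeting siRNA, a contrast that the choice of the gene did not use. Its libraries are the controls of the contrasts that did choose the gene, so this test is not independent of the choice. TMCO1 was lower with E2 in MM134, by -0.29 ± 0.05 (SE) on the log2 scale, with every siNT_E2 library below every siNT library (adjusted p = 1.6e-05, edgeR quasi-likelihood test with Benjamini-Hochberg adjustment). In that comparison 27.2% of all genes were called lower, at an adjusted p below 0.05, and 30.2% had all siNT_E2 libraries below. In HCC1428 it was lower by -0.26 ± 0.04, again with no overlap (edgeR adjusted p = 3.5e-05), where 25.7% of genes were called lower and 28.5% did not overlap in that direction. In MM330 the groups overlapped and the difference of -0.04 ± 0.13 was not called (edgeR adjusted p = 0.88), while 26.3% of genes were called in either direction. Its 95% interval, from -0.32 to 0.23, holds the values of both other lines. A test of the difference itself did not call the E2 effect different between any pair of lines, at -0.01 ± 0.11 for MM134 minus HCC1428, 0.22 ± 0.13 for MM330 minus HCC1428 and -0.23 ± 0.14 for MM134 minus MM330 (edgeR adjusted p = 1.00, 0.22 and 0.24). In bulk RNA, fewer cells with the transcript and less of it per cell cannot be told apart.

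Whether the 3 targeting siRNAs gave the same level was also tested within lines. These tests use the targeting libraries of the contrasts that chose the gene, so they are not independent of the choice. In MM134, siFOXA1_E2 was below siMDC1_E2 by -0.13 ± 0.04 on the log2 scale (edgeR adjusted p = 0.0039), where 49.8% of genes were called. The siER_E2 level was 0.08 ± 0.04 above siFOXA1_E2 (edgeR adjusted p = 0.067; 51.3% of genes called) and -0.05 ± 0.04 from siMDC1_E2 (edgeR adjusted p = 0.26; 45.6%). Their 95% intervals ran from 0.01 to 0.16 and from -0.13 to 0.02. The first of these passed at 0.09 with only the compared libraries fitted (edgeR adjusted p = 0.048).

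No pair of targeting groups was called apart in MM330. The differences were 0.09 ± 0.11 for siER_E2 minus siFOXA1_E2, 0.22 ± 0.11 for siER_E2 minus siMDC1_E2 and 0.13 ± 0.11 for siFOXA1_E2 minus siMDC1_E2 (edgeR adjusted p = 0.53, 0.15 and 0.35), where 45.9%, 30.6% and 48.8% of genes were called. Their 95% intervals ran from -0.14 to 0.32, from -0.01 to 0.45 and from -0.10 to 0.36. The siER_E2 libraries did lie above the siMDC1_E2 libraries without overlap, as 22.4% of genes did, and that difference passed when genes of low count were kept (0.22, adjusted p = 0.034) and with only the compared libraries fitted (0.23, adjusted p = 0.039).

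In HCC1428 all 3 pairs were called. The siER_E2 level exceeded siFOXA1_E2 by 0.30 ± 0.04 (edgeR adjusted p = 6.5e-06; 42.9% of genes called) and siMDC1_E2 by 0.17 ± 0.04 (edgeR adjusted p = 0.0020; 41.1%). The siFOXA1_E2 level was below siMDC1_E2 by -0.12 ± 0.04 (edgeR adjusted p = 0.016; 45.4%). The siER_E2 libraries lay above those of siFOXA1_E2 and siMDC1_E2, as 26.2% and 21.6% of genes did, and the siFOXA1_E2 below the siMDC1_E2 libraries, as 30.3% did. The call of siFOXA1_E2 below siMDC1_E2 ended with RLE size factors (-0.09, adjusted p = 0.086), in DESeq2 (-0.09, adjusted p = 0.11), and without siFOXA1_E2 replicate 2, siFOXA1_E2 replicate 3 or siMDC1_E2 replicate 2 (edgeR adjusted p = 0.067, 0.058 and 0.070). The depth of ESR1 knockdown differed as well: 49.8% of ESR1 remained in HCC1428 against 11.5% in MM134 and 7.82% in MM330.

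Before any E2, the lines themselves differed. Scaled together over 45 libraries, the siNT level of MM134 was 21.9 ± 0.52 CPM, that of MM330 9.33 ± 0.94 and that of HCC1428 63.9 ± 2.1 (SD, n = 3). MM134 was below HCC1428 by -1.55 ± 0.08 on the log2 scale (edgeR adjusted p = 3.1e-21), where 75.6% of genes were called. MM330 was below HCC1428 by -2.79 ± 0.09 (edgeR adjusted p = 2.8e-28; 73% called). MM134 was above MM330 by 1.24 ± 0.09 (edgeR adjusted p = 1.8e-15; 72.4% called). Neighbours in the order of lines thus differed beyond their spread. With 1 line of ductal origin, origin and line cannot be told apart.

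To place TMCO1 among the other genes, those with all 9 targeting libraries of a line above its 6 non-targeting ones were counted. In MM134 they were 639 genes, 3.6% of those tested, in MM330 366 genes (2.05%) and in HCC1428 118 genes (0.645%). The reverse order held for 435 (2.45%), 306 (1.72%) and 102 genes (0.558%). Of 14933 genes tested in all 3 lines, 64 (0.429%), TMCO1 among them, lay above in each line and 12 (0.0804%) below. With the non-targeting group restricted to siNT_E2 the numbers were 270 above and 237 below, and with siNT alone 219 and 139.

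Ordered by the smallest of the 3 line differences in mean log2 CPM between targeting and non-targeting libraries, TMCO1 (1.94 in MM134, 1.93 in MM330 and 1.12 in HCC1428) was the second of the 64. The first was ZNF658B, a transcribed pseudogene (1.73, 1.48 and 1.19), whose mean level reached at most 3.06 CPM and whose reads a related zinc finger gene may share. MPZL3, a membrane protein of the immunoglobulin family, followed at 1.47, 1.17 and 1.04. LAMP2, a lysosomal membrane protein, stood at 0.93, 1.44 and 0.82, and MDK, the growth factor midkine, at 1.09, 1.20 and 0.77. Genes on the other side were led by the small GTPase NRAS (-0.92, -1.002 and -0.68). ESR1, one of the targeted genes, followed (-2.15, -1.73 and -0.64), then the glycosyltransferase MGAT4A (-0.49, -0.74 and -0.43), the GTPase RAB2B (-0.43, -0.50 and -0.44) and the ubiquitin-conjugating enzyme UBE2N (-0.69, -0.56 and -0.42). TMCO1 therefore shared its order of libraries with 63 other genes, and in no line was it the only gene of that kind.

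**Figure D3:**
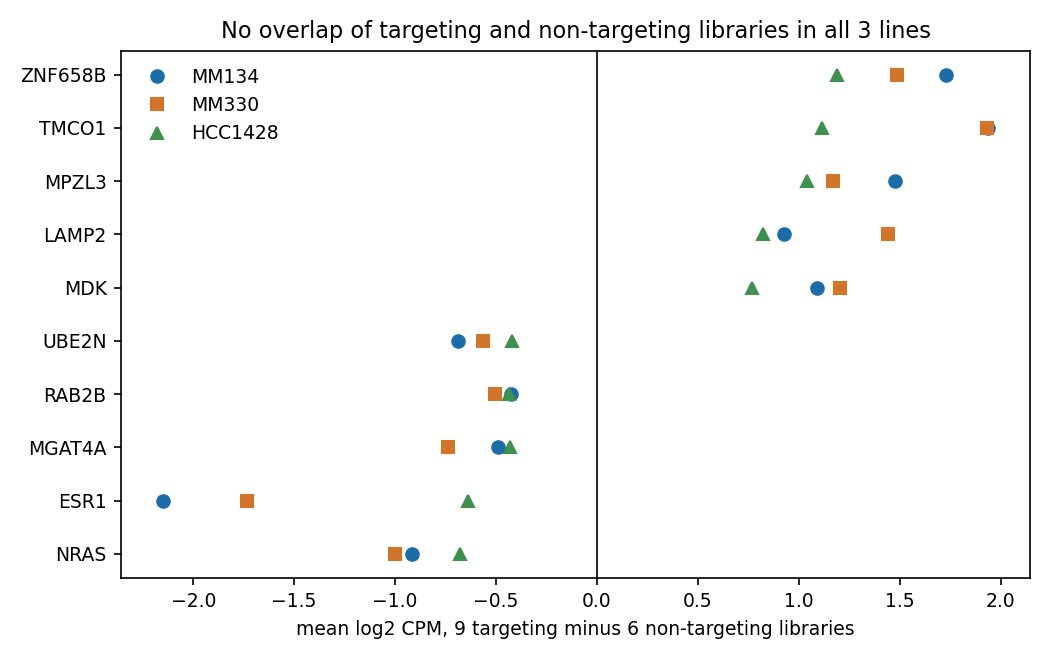
Difference in mean log2 CPM between the 9 targeting and the 6 non-targeting libraries of each line (one symbol per line) for the 5 genes in each direction with the largest value of the smallest line difference, among genes whose libraries do not overlap in any line. TMCO1, at 1.94, 1.93 and 1.12, is the second gene from the top, and NRAS, at -0.92, -1.002 and -0.68, is at the bottom.

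Genes with a pattern like that of TMCO1 were ranked by Pearson correlation of log2 CPM over the 45 libraries, with the mean of each line subtracted. Among the 5 most similar of 14932 genes were MOV10, an RNA helicase found with Argonaute proteins (r = 0.96, Spearman 0.90), LAMP2 (0.96, 0.82), the zinc finger gene ZNF268 (0.95, 0.90) and RAB3GAP1, a regulator of vesicle transport (0.95, 0.89). In all, 26 genes reached 0.9, 125 reached 0.8, and the median was -0.02. The most opposite were NRAS (-0.95), the adaptor YWHAE (-0.93), DICER1, which cuts small RNAs from their precursors (-0.92), MGAT4A (-0.89) and NXPE3 (-0.88). The 45 points share groups and lines, so the coefficients describe which genes separate the same groups.

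In levels, NRAS ran against TMCO1, at a mean of 54.0 CPM in the 9 targeting libraries against 108 in siNT_E2 and 94.0 in siNT of MM134, 184 against 385 and 350 in MM330, and 29.1 against 52.1 and 41.7 in HCC1428.

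The antisense gene TMCO1-AS1, whose start adjoins that of TMCO1, had few counts, 31 to 68 in MM134 libraries, 0 to 14 in MM330 and 7 to 46 in HCC1428. In HCC1428 it stood at 0.43 ± 0.21 CPM in siNT_E2, 1.09 ± 0.15 in siER_E2, 1.30 ± 0.32 in siFOXA1_E2, 0.45 ± 0.14 in siMDC1_E2 and 1.17 ± 0.24 in siNT (SD, n = 3). It rose against siNT_E2 with siER_E2 (1.32 ± 0.34, edgeR adjusted p = 0.0030) and siFOXA1_E2 (1.58 ± 0.34, edgeR adjusted p = 0.00062), where 22.5% and 24.1% of genes were called higher. With siMDC1_E2 it differed by 0.07 ± 0.37 (edgeR adjusted p = 0.92), although TMCO1 stood 2.35-fold higher in the same libraries. With E2 alone it fell by 1.42 ± 0.34 there (edgeR adjusted p = 0.0014). In MM134 it rose with siER_E2 (0.63 ± 0.21, edgeR adjusted p = 0.014), whereas 0.25 ± 0.21 with siFOXA1_E2 and 0.38 ± 0.21 with siMDC1_E2 did not pass (edgeR adjusted p = 0.33 and 0.15), and in MM330 no difference passed at 0 to 14 counts.

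Of 27 listed genes within 500 kb, 5 to 8 were measured in a comparison, and 0 to 3 of them were higher and 0 to 2 lower. Summed over the 9 knockdown comparisons with siNT_E2, 22.8% of the neighbours' values were called higher and 19.3% lower, near the 21.3% and 23.1% of all genes. Against siNT_E2, UCK2, a uridine kinase that overlaps the longest TMCO1 model, was lower in MM134 by 0.37 ± 0.04, 0.39 ± 0.04 and 0.44 ± 0.04 with siER_E2, siFOXA1_E2 and siMDC1_E2, and in HCC1428 by 0.38 ± 0.04, 0.35 ± 0.04 and 0.27 ± 0.04 (edgeR adjusted p at most 0.00011). In MM330 it was lower with siFOXA1_E2 by 0.41 ± 0.06 (edgeR adjusted p = 5.4e-05), and the others, at -0.11 and -0.07, did not pass. Its siNT mean was below siNT_E2 as well, at 54.4 against 73.5 CPM in MM134, 31.8 against 41.8 in MM330 and 68.8 against 93.2 in HCC1428. The targeting means of UCK2 ran from 54.0 to 56.9 CPM in MM134, 31.6 to 39.7 in MM330 and 71.8 to 77.0 in HCC1428. ALDH9A1, an aldehyde dehydrogenase, rose in MM134 with siER_E2 (0.25 ± 0.05) and siFOXA1_E2 (0.52 ± 0.05) and passed in no other of the 9 comparisons. MGST3, a microsomal glutathione transferase, rose with siFOXA1_E2 by 1.62 ± 0.04 in MM134, 0.43 ± 0.05 in MM330 and 0.80 ± 0.05 in HCC1428. It fell with siER_E2 in MM330 (-0.26 ± 0.05), and its other called changes were rises of 0.41 and 0.28 in MM134 and 0.16 in HCC1428. FAM78B, measured in 6 comparisons, rose in 2 and fell in 1. RXRG, a retinoid receptor gene measured in MM134 alone, fell by 1.87 and 2.41 with siER_E2 and siFOXA1_E2.

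Across the 9 knockdown comparisons with siNT_E2, between 10.4% and 29.3% of all genes were called higher and between 10.4% and 29.5% lower. In order of siER_E2, siFOXA1_E2 and siMDC1_E2 the shares higher were 29.3%, 27.9% and 25.4% in MM134, 15.1%, 24.4% and 10.4% in MM330, and 22.5%, 24.1% and 13.2% in HCC1428. Those lower were 27.9%, 28.5% and 25% in MM134, 17.4%, 24.6% and 10.4% in MM330, and 28.7%, 29.5% and 15.9% in HCC1428. Counts of the lists that follow are read beside these shares. Counts and differences there are against siNT_E2 unless another comparison is named, and the 3 comparisons of a line share the siNT_E2 libraries.

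The partners of TMCO1 in the multipass translocon were read next. Of 8 listed genes 7 were measured, and WDR83OS was listed at 0 in all 45 libraries. That 0 is not read as absence of expression, because the gene overlaps WDR83 in GENCODE 29 and how overlapping genes were counted was not given. In any comparison with siNT_E2 at most 1 of the 7 was higher and 1 to 4 were lower. List medians ran from -0.26 to 0.01, against -0.03 to 0.04 for all genes. Against siNT the list medians were 0.24, 0.49 and 0.14 in MM134 with siER_E2, siFOXA1_E2 and siMDC1_E2. In the same order they were -0.004, -0.31 and -0.10 in MM330 and 0.05, 0.17 and -0.002 in HCC1428. Against siNT_E2, CCDC47, which chaperones new membrane spans, moved by target. It rose with siFOXA1_E2 by 0.47 ± 0.04 in MM134, 0.35 ± 0.04 in MM330 and 0.59 ± 0.04 in HCC1428, and fell with siMDC1_E2 by 0.82 ± 0.04, 0.44 ± 0.04 and 0.31 ± 0.04 (edgeR adjusted p at most 2.6e-06). With siER_E2 it fell in MM134 (-0.31) and MM330 (-0.24), and in HCC1428 -0.04 did not pass.

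RAB5IF, the direct partner of TMCO1, fell with siER_E2 in MM134 (-0.26 ± 0.05) and HCC1428 (-0.44 ± 0.06), with siMDC1_E2 in MM134 (-0.13) and with siFOXA1_E2 in MM330 (-0.30). NCLN fell in MM134 by 0.67, 0.31 and 0.30 with siER_E2, siFOXA1_E2 and siMDC1_E2, and in HCC1428 by 0.31 and 0.34 with the first pair. In MM330 it rose by 0.19 with siER_E2 and fell by 0.24 with siFOXA1_E2. TMEM147 fell in 2, 2 and 3 comparisons in MM134, MM330 and HCC1428, by at most 0.69. NOMO1 rose by 0.17 and 0.13 in MM134 and by 0.12 in HCC1428, and NOMO2 and NOMO3 passed in no comparison. The NOMO genes are near-identical copies, so the split of reads between them is uncertain.

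The partners were also read in the E2 comparison, in which TMCO1 fell in MM134 and HCC1428. NCLN rose with E2 by 0.80 ± 0.03 in MM134 and 0.52 ± 0.05 in HCC1428, TMEM147 by 0.68 ± 0.04 and 0.31 ± 0.04, and RAB5IF by 0.55 ± 0.05 and 0.64 ± 0.07 (edgeR adjusted p at most 7.3e-06). Genes called higher with E2 were 27.2% in MM134 and 29.1% in HCC1428. CCDC47 rose in MM134 (0.16) and fell in HCC1428 (-0.14), and NOMO1 did not pass in either line.

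Per kilobase of exon, TMCO1 in siNT_E2 stood below RAB5IF, CCDC47, NCLN and TMEM147 in each line. In siNT_E2 its level in MM134 was 3.47 ± 0.17 CPM per kb, that in MM330 1.55 ± 0.30 and that in HCC1428 9.16 ± 0.07 (SD, n = 3). RAB5IF stood at 22.9, 11.7 and 25.2, CCDC47 at 21.6, 38.4 and 48.9, NCLN at 41.1, 12.5 and 30.8, and TMEM147 at 55.5, 49.3 and 70.6 CPM per kb. NOMO1 stood above TMCO1 as well, at 11.2, 9.55 and 14.2 CPM per kb, whereas NOMO3, at 1.72, 0.768 and 1.53, stood below it in each line, and NOMO2, at 4.88, 4.30 and 7.84, stood below it in HCC1428 alone. With siMDC1_E2, TMCO1 reached 15.4 ± 0.41, 5.54 ± 0.32 and 21.5 ± 0.56 CPM per kb. RAB5IF in the same groups stood at 20.9, 12.0 and 24.6, and CCDC47 at 12.2, 28.3 and 39.5, so that in MM134 the mean of TMCO1 was above that of CCDC47. With siER_E2 in HCC1428, TMCO1 at 24.2 ± 1.2 was above RAB5IF at 18.6 ± 0.78 CPM per kb. These levels were not tested against each other. Exon length is that of all annotated exons joined, which lowers the level of genes with long, rarely used exons.

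**Figure D4:**
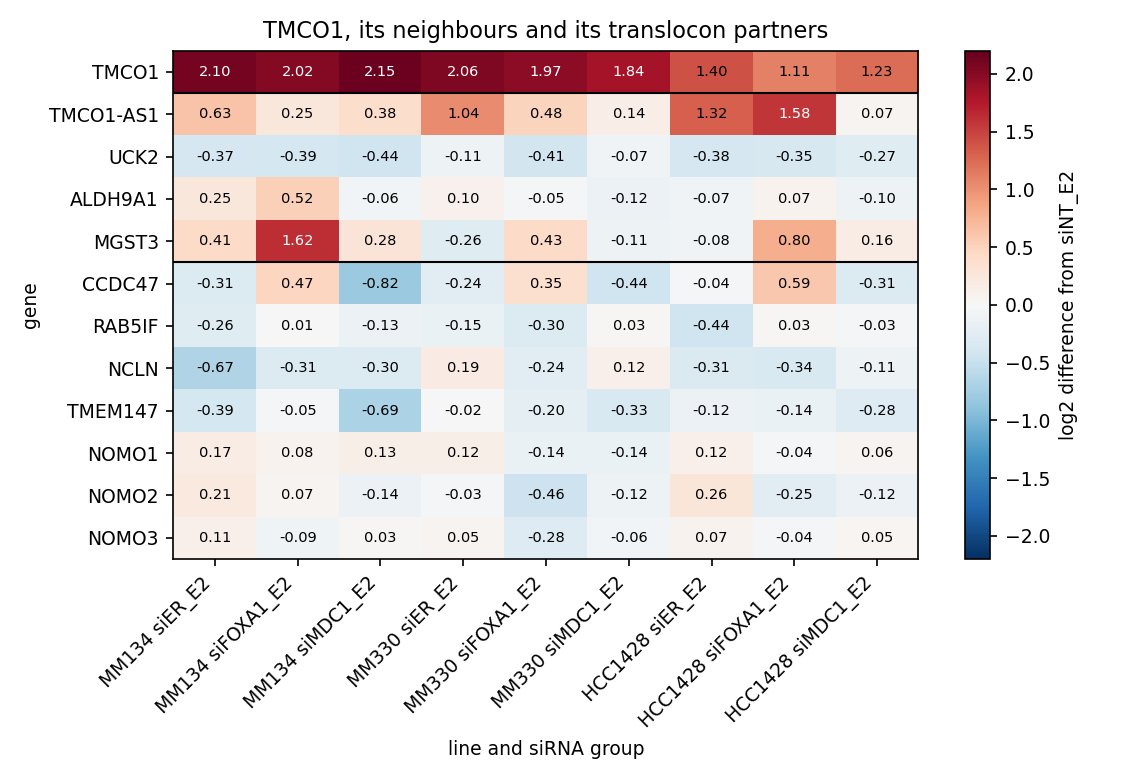
Log2 difference from siNT_E2 for TMCO1 (top row), 4 neighbouring genes (rows 2 to 5) and 7 translocon partners (lower rows) in the 9 knockdown comparisons; red is higher, blue is lower, and the number in each cell is the value. The TMCO1 row runs from 1.11 to 2.15 in every comparison, whereas the partner rows run from -0.82 to 0.59.

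Genes that work around TMCO1 in the membrane were counted next. Of 11 SEC61 channel and associated genes, 0 to 2 were higher and 1 to 8 lower in a comparison with siNT_E2. List medians ran from -0.33 to -0.05 against siNT_E2 and from -0.18 to 0.13 against siNT. SSR1, a subunit of the translocon-associated protein complex, was called lower than siNT_E2 in 7 of 9 comparisons. Among these it fell with siFOXA1_E2 by 1.05 in MM134, 1.06 in MM330 and 0.93 in HCC1428, and by 0.33 and 0.28 with siER_E2 and siMDC1_E2 in MM134. SEC62 and SEC63, which serve the import of finished proteins, had lowest differences of -0.66 and -0.65. Of 17 or 18 measured genes of other insertases, among them EMC3 and WRB, relatives of TMCO1, 1 to 5 were higher and 1 to 12 lower. List medians ran from -0.24 to -0.005 against siNT_E2. Against siNT they were 0.09, 0.03 and 0.10 in MM134 with siER_E2, siFOXA1_E2 and siMDC1_E2. In the same order they were -0.004, -0.23 and -0.13 in MM330 and 0.05, -0.12 and 0.01 in HCC1428. With E2 against vehicle the list median was 0.19 in MM134, -0.03 in MM330 and 0.09 in HCC1428. The EMC subunit MMGT1 was called lower than siNT_E2 in 7 of 9 comparisons, with differences from -2.17 to -0.11 over the 9. With siMDC1_E2 it fell by 2.17, 1.35 and 0.97 in MM134, MM330 and HCC1428. EMC3 moved between -0.28 and 0.08 and WRB between -0.37 and 0.06. SGTA, a chaperone of tail-anchored proteins, and the EMC subunit EMC6 reached -0.77 and -1.48. GET4, another gene of this list, was called higher than siNT_E2 in 9 of 9 comparisons, by 0.30 to 0.93.

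Calcium handling genes of the reticulum, 13 to 15 of 16 measured, had 3 to 8 higher and 1 to 7 lower members. List medians ran from -0.18 to 0.24 against siNT_E2. Against siNT they were 0.11, 0.18 and 0.10 in MM134 with siER_E2, siFOXA1_E2 and siMDC1_E2. In the same order they were 0.12, -0.11 and 0.13 in MM330 and 0.12, 0.17 and -0.04 in HCC1428. With E2 against vehicle the list median was 0.02 in MM134, 0.06 in MM330 and -0.05 in HCC1428. ATP2A2, the pump that fills the store, fell against siNT_E2 by 0.42, 0.48 and 0.67 in MM134 with siER_E2, siFOXA1_E2 and siMDC1_E2. In the same order it fell by 0.19, 0.42 and 0.13 in MM330 and by 0.35, 0.27 and 0.21 in HCC1428. It was not among the 12 genes whose targeting libraries lay below all non-targeting libraries in each line. Against siNT_E2, ITPR2, a channel that releases calcium, rose by 0.64, 1.15 and 0.41 in MM134. It rose by 0.50 and 0.64 with the first pair in MM330, and by 0.41, 0.63 and 0.35 in HCC1428. ITPR1 went from -0.92 with siFOXA1_E2 in MM330 to 1.81 with siER_E2 in HCC1428.

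Of 11 calcium-binding chaperones of the lumen, 1 to 6 were higher and 1 to 9 lower against siNT_E2, with list medians from -0.36 to 0.14. Against siNT the medians were 0.19, 0.78 and 0.37 in MM134, 0.12, -0.13 and 0.10 in MM330 and 0.21, 0.23 and 0.34 in HCC1428. With E2 against vehicle they were 0.54, 0.12 and 0.27 in MM134, MM330 and HCC1428. CANX, a membrane-bound chaperone, rose against siNT_E2 by 0.38, 0.79 and 0.62 in MM134, 0.68, 0.72 and 0.82 in MM330 and 0.35, 0.61 and 0.53 in HCC1428. HSPA5 and CALR ranged from -0.96 to 0.14 and from -0.78 to 0.18. Of 15 genes of the unfolded protein response, 2 to 6 were higher and 0 to 12 lower against siNT_E2. List medians ran from -0.49 to 0.06 against siNT_E2 and from -0.29 to 0.18 against siNT. HERPUD1, which works in the disposal of misfolded proteins, rose by 0.21 to 0.92. XBP1, a factor of that response and an estrogen-responsive gene, was called lower than siNT_E2 in 8 of 9 comparisons. In MM134 it fell by 0.99, 1.61 and 0.98. SEL1L, a disposal adaptor, lay between -0.60 and 0.58.

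Genes of small RNA machinery and of the response to double-stranded RNA were listed because every group carried an siRNA. Of 13 RNA interference genes, 1 to 4 were higher and 3 to 7 lower. List medians ran from -0.14 to 0.002 against siNT and from -0.24 to 0.006 against siNT_E2. DICER1 fell by 0.71, 0.71 and 0.82 in MM134, 0.46, 0.62 and 0.51 in MM330 and 0.34, 0.42 and 0.30 in HCC1428. AGO2, the slicing Argonaute, fell by 0.50, 1.01 and 0.46 in MM134, and by 0.24 and 0.48 with siER_E2 and siFOXA1_E2 in MM330, where -0.11 with siMDC1_E2 did not pass. In HCC1428 it fell by 0.37, 0.54 and 0.24. AGO1 fell by 1.50, 0.92 and 0.87 with siFOXA1_E2 in the 3 lines, and its siMDC1_E2 values in MM134 and HCC1428, -0.02 and -0.08, did not pass.

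Of 20 interferon and double-stranded RNA response genes, 14 were measured in MM134 and 20 in the other lines. Against siNT_E2, between 1 and 9 were higher and 0 to 4 lower. List medians ran from 0.04 to 0.91, above those of all genes except with siER_E2 in MM134 (0.036 against 0.042). With E2 against vehicle the list median was 0.02 in MM134, -0.42 in MM330 and -0.52 in HCC1428. Against siNT the medians were -0.03, 0.07 and 0.14 in MM134 with siER_E2, siFOXA1_E2 and siMDC1_E2. In the same order they were -0.31, -0.01 and -0.03 in MM330 and -0.05, 0.24 and 0.25 in HCC1428. Without a filter on low counts, calls higher over the 9 comparisons with siNT_E2 numbered 69 in place of 40. IFI44 reached 1.97 and IFI44L 2.48, both with siMDC1_E2 in MM330, and OAS3 ranged from -1.60 to 0.60. Whether these changes have a part in the level of TMCO1 was not tested.

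Technical measures of the libraries were set beside the groups. In MM134, targeting libraries had 8.65% to 9.83% and non-targeting 8.64% to 10.03% of counts from mitochondrially encoded genes. In MM330 the ranges were 10.7% to 14.6% and 10.7% to 12.7%, and in HCC1428 14.9% to 17.8% and 11.7% to 18.7%, all overlapping. Scaling factors lay between 0.956 and 1.05 in every library. With the 34 libraries of lower pseudogene share alone, TMCO1 differed from siNT_E2 by 1.51 with siER_E2 and 1.14 with siFOXA1_E2 in HCC1428, and every difference between a targeting and a non-targeting group kept its sign.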

How the data were processed

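Polyadenylated RNA was sequenced as paired reads of 150 bases with a stranded kit, per the labels. Reads were aligned to GRCh38 with STAR 2.6.0a, and limma is named, per the submitters' processing notes. What tool and annotation counted the reads, and whether by strand, was not given in the sources used here. Deposited by the authors were raw counts per gene symbol for 45 libraries, whose totals ran from 21.0 to 36.7 M, and 27 symbols, with 0.195% of all counts, had been turned into dates. Reads carried no molecular identifiers.

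Groups came from the labels. Counts were analysed with edgeR 4.0.16 in R 4.3.3: genes were kept by filterByExpr, totals scaled by TMM, the 15 libraries of a line fitted together (45 for levels and differences between lines), and p-values adjusted by Benjamini-Hochberg over all genes tested; a gene was called below 0.05. CPM values use TMM-scaled totals, and log2 CPM a prior count of 2. For TMCO1, 18 comparisons carry no test, 15 do, and 12 differences between lines were tested. Positions came from GENCODE 29 and RefSeq; TMCO1-AS1 was matched in RefSeq by symbol. The script was tested on simulated data.

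The gene and all lists were chosen with earlier results of these data known. GET4 was named outside the rules that follow, because it was called higher in 9 of 9 comparisons with siNT_E2. Named were TMCO1; the 5 genes most like and unlike it, of which 1 is not reported here; the 5 non-overlapping genes in each direction with the largest smallest difference; all multipass translocon partners; up to 3 members of each other list by smallest p, to which EMC3 and WRB were added as relatives; and the protein-coding and antisense neighbours. The alternatives were RLE scaling, no filter, DESeq2 1.42.0, limma-voom 3.58.1, a replicate block, the compared libraries only, the libraries with the lower pseudogene share (below 0.248%) and leaving out each library. Those for differences between lines were added after seeing the data. In every group, replicate libraries differed by more than sampling noise, so none was counted as a copy.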

Additional observations from a re-analysis of the deposited data

Results flagged for a closer look

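The comparisons between targeting siRNAs were tested for differences between lines in a fit of all 45 libraries, and 3 of the 9 such differences in TMCO1 passed (edgeR quasi-likelihood test with Benjamini-Hochberg adjustment). The siER_E2 minus siMDC1_E2 difference was lower in MM134 than in HCC1428 by -0.28 ± 0.10 on the log2 scale (SE, adjusted p = 0.040). In MM134 the siER_E2 libraries, at 82.2 to 83.8 CPM, overlapped the siMDC1_E2 libraries, at 83.6 to 88.2 CPM, whereas in HCC1428 they lay above them, at 128 to 142 against 117 to 123 CPM. The same difference was lower in MM134 than in MM330 by -0.31 ± 0.11 (adjusted p = 0.036), where siER_E2 stood at 33.5 to 40.8 CPM and siMDC1_E2 at 29.7 to 33.0 CPM. The siFOXA1_E2 minus siMDC1_E2 difference was lower in MM134 than in MM330 by -0.29 ± 0.11 (adjusted p = 0.034). These calls depended on single libraries. The first passed in 3 of 12 fits that left out 1 library of the compared groups (without MM134 siMDC1_E2 replicate 2, HCC1428 siER_E2 replicate 3 or HCC1428 siMDC1_E2 replicate 2), with values of -0.32 to -0.24 and edgeR adjusted p of 0.030 to 0.13 over the 12. The second passed in 5 of 12 (without MM134 siER_E2 replicate 2, MM134 siMDC1_E2 replicate 2, MM330 siER_E2 replicate 1 or 3, or MM330 siMDC1_E2 replicate 1), with values of -0.36 to -0.19 and edgeR adjusted p of 0.017 to 0.24. The third passed in 4 of 12 (without replicate 2 of MM134 siFOXA1_E2 or siMDC1_E2, or replicate 1 of MM330 siFOXA1_E2 or siMDC1_E2), with values of -0.38 to -0.21 and edgeR adjusted p of 0.0035 to 0.16. All of these values were negative. Without a filter on low counts the first and the third did not pass (-0.23, edgeR adjusted p = 0.072, and -0.22, 0.062), and with the libraries of lower pseudogene share alone the second and the third did not (-0.33, 0.072, and -0.21, 0.18). RLE scaling, limma-voom and the replicate block kept all 3 calls, and limma-voom added siER_E2 minus siFOXA1_E2 in MM134 minus HCC1428 (-0.22, adjusted p = 0.033, against -0.23 and 0.094 in edgeR). These tests, too, use the targeting libraries of the contrasts that chose the gene and are not independent of the choice. No cause was tested.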

How the results depend on the processing

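The 18 differences of TMCO1 between targeting and non-targeting groups kept their direction in all 234 alternative values, which ran from 0.82 to 2.19 on the log2 scale. Of these, 9 moved by more than the spread between replicates, all in HCC1428. With the lower pseudogene share alone, siER_E2 differed from siNT_E2 by 1.51 and from siNT by 1.28, and siFOXA1_E2 by 1.14 and 0.90; this left 1 library each in HCC1428 siER_E2 and siNT, assumed to vary like the other groups. The siFOXA1_E2 minus siNT_E2 value was 1.14 with RLE, 1.14 in DESeq2, 1.15 with the compared libraries only and 1.09 to 1.14 leaving out 1 library.

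Of 195 values for the other 15 TMCO1 comparisons, 186 kept their side of the threshold. In MM134, siER_E2 minus siFOXA1_E2 passed with the compared libraries only (0.09, edgeR adjusted p = 0.048) and without siFOXA1_E2 replicate 2 (adjusted p = 0.034; 0.060 to 0.11 leaving out 1 library). In MM330, siER_E2 minus siMDC1_E2 passed without a filter (0.22, adjusted p = 0.034) and with the compared libraries only (0.23, 0.039). In HCC1428, siFOXA1_E2 minus siMDC1_E2 no longer passed with RLE (-0.088, 0.086) or DESeq2 (-0.087, 0.11), and ranged from -0.14 to -0.11 leaving out 1 library. The cause was not tested.

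Genes without overlap in all 3 lines numbered 64 above and 12 below, 270 and 237 against siNT_E2 alone, 219 and 139 against siNT alone, for which fewer libraries must be ordered, and 29 below with the lower pseudogene share; TMCO1 lay above in 3 of 3 lines each time. Of the 5 genes most like and unlike TMCO1, Spearman ranks kept 2 and 3, and uncentred values 0 and 1. With the lower share alone, genes called in MM330 fell from 3604 to 1900 (siER_E2 minus siNT), 3710 to 2208 (siMDC1_E2 minus siNT_E2), 4690 to 3092 (siNT_E2 minus siNT) and 5462 to 3571 (siER_E2 minus siMDC1_E2), and in HCC1428 from 3875 to 2176 (siER_E2 minus siNT). Interferon calls numbered 69 without a filter and 40 with it.

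With the replicate number as a block, all 33 TMCO1 comparisons kept their verdict; MM134 siFOXA1_E2 minus siMDC1_E2, for example, was -0.13 (adjusted p = 0.0047). The labels tie the numbers to no shared culture or day. Correlations of deviations between same-numbered libraries had medians near 0 (-0.003 to 0.003). Single values spread widely, in MM330 from -0.47 to 0.67 for the same number and from -0.48 to 0.67 for other numbers. Whether same-numbered libraries share a culture or day is therefore not known. TMCO1 counts were lowest in MM330, at 196 to 292 per non-targeting library, where library totals ran from 26.3 to 36.6 M.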
